A study of Mus musculus with 2 samples.

Results

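The Hox genes described here are 38 genes of the 4 mouse Hox clusters, chosen by name: every probe outside the controls whose gene name is Hoxa, Hoxb, Hoxc or Hoxd followed by a number, leaving out antisense names and 1 gene of the Hoxc cluster. They are 38 of 24288 genes named on the array and are read by 43 of its 39422 probes. The arrays measured skin RNA of newborn mice at postnatal day 0, all of the strain C57BL/6N. The KO array held a pool from 5 Pla2g4e-/- mice, and the WT array held a pool from 5 Pla2g4e+/+ mice. Pla2g4e encodes a cytosolic phospholipase A2, an enzyme that acts on membrane lipids and that the series' title links to psoriatic inflammation. The labels name no body site for the skin, and the question put to the Hox genes was whether both pools show the same code of body position. Each genotype has a single array, so differences are described by their size and carry no p-value.

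Hox genes encode homeodomain transcription factors that give cells their address along the head-to-tail axis, and dermal fibroblasts keep such an address after birth. In each cluster the genes stand in the order of their numbers: low numbers are used from the hindbrain and neck onward, middle numbers along the trunk, and high numbers toward the tail. Numbers from 9 upward in the Hoxa and Hoxd clusters are used again along the limb, and number 13 marks its far end, the genital region and the tail. The dermis of the face, which comes from the neural crest in front of the Hox domain, is known for lacking most of them.

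The check of the pools comes first. The Pla2g4e probe that was well above background on both arrays read 320 in the KO pool and 662 in the WT pool, which is 0.514 of the WT level after scaling. The labels do not say which part was deleted, so whether this probe lies in it was not determined and it does not check the genotype. The Y-linked gene Ddx3y read 2.36 in the KO pool, not well above background, and 2893 in the WT pool. Xist, which silences an X chromosome in females, read 2889 in the KO pool and 796 in the WT pool at its brighter probe. The pools thus differed in the sex of their animals as well as in genotype, and the effects of these cannot be told apart here. All 6 keratinocyte markers and all 8 dermal fibroblast markers were well above background in both pools, and their median log2 differences, KO minus WT, were 0.13 and 0.07. The scanner software gave the difference of a gene a median error of 0.20 log2, most of it a fixed share of about 10.1% of each spot's signal, which leaves out the spread among animals.

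Most of the Hox genes were detected in both pools, as were most genes of the array. A gene counted as detected where at least 1 of its probes was well above background by the scanner's own mark, and this held for 35 of the 38 genes in the KO pool and 33 in the WT pool. All 33 were detected in both pools. Over all genes of the array, 83.3% were detected in the KO pool, 80.7% in the WT pool, and 79.9% had a probe well above background in both. In the Hoxa cluster 11 of 11 genes were detected in the KO pool and 10 in the WT pool, and in the Hoxb cluster 9 of 10 and 8. In both pools, all 8 Hoxc genes studied and 7 of 9 Hoxd genes were detected. The mark passed dim probes, from a signal of 9.84 on the KO array and 13.5 on the WT array. Detection alone therefore does not show a body site.

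By number, all 15 genes of numbers 4 to 8 were detected in both pools, which are the numbers used along the trunk. So were 7 of the 8 genes of numbers 1 to 3, the exception being Hoxb1, a gene of the hindbrain. Of the 15 genes of numbers 9 to 13, 13 were detected in the KO pool and 11 in the WT pool. All 10 genes of numbers 9, 10 and 11 were among those detected in both. Number 12 had Hoxc12 in both pools and Hoxd12 in neither. Among the 3 genes of number 13 that were studied, 2 were detected in the KO pool and 0 in the WT pool, all at signals near the background.

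**Figure D1:**
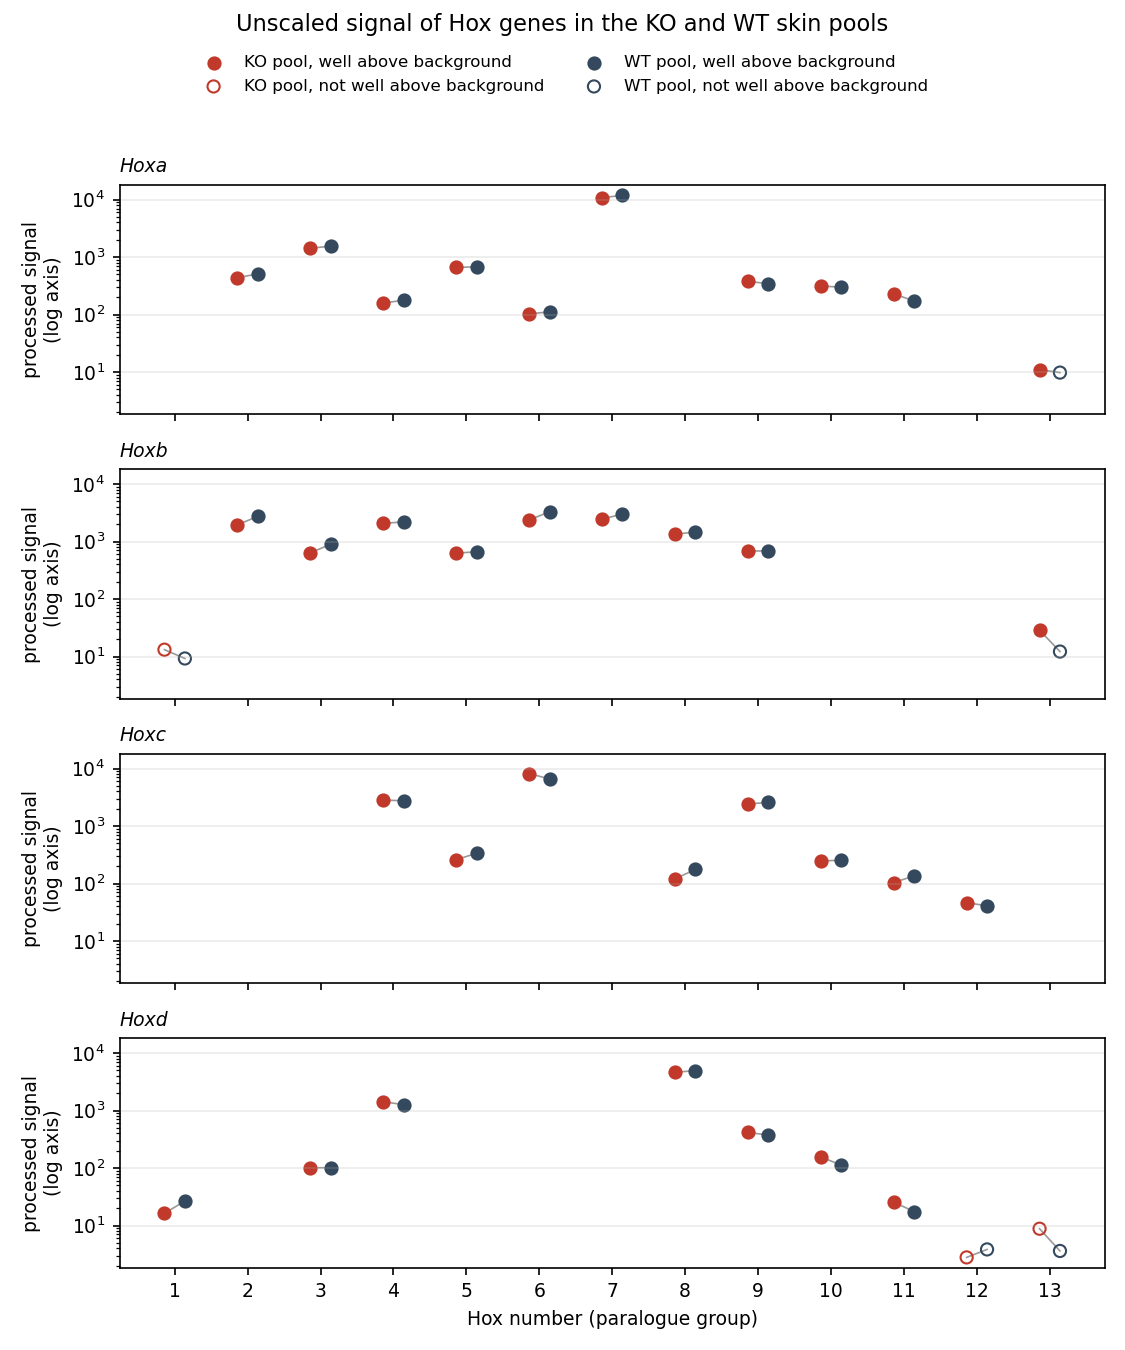
Processed signal of the Hox genes shown on the unscaled log axis, by cluster and number, with the KO pool left of the WT pool and 1 probe per gene (the brightest that was well above background on both arrays, or the brightest where there was none). Filled points were well above background and open points were not, which leaves Hoxb1, Hoxd12 and Hoxd13 open in both pools, and Hoxa13 and Hoxb13 open in the WT pool. Heights of different probes cannot be compared with each other, only KO against WT at 1 number.

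The single genes at the far end show how thin that detection was. Hoxb13, a gene of the tail end of the body, read 28.8 in the KO pool and 12.2 in the WT pool, where it was not well above background. Set after scaling against the lowest signal that counted as well above background on the WT array, it was 2.26-fold higher in the KO pool. This is not a strict bound, since unmarked probes can read above that signal, as Pbx4 did at 20.3 on the WT array. The Hoxb13 readings themselves differed by 1.33 log2 with a scanner error of 0.51, from 1 spot per array. Hoxa13, a gene of the distal limb and genital region, read 11.05 in the KO pool and 9.80 in the WT pool at its brighter probe. Those signals are nearly equal. The mark began at 9.84 on the KO array and at 13.5 on the WT array, so Hoxa13 was called in 1 pool alone without a difference in size. Set against the lowest marked WT signal in the same way, it gave no fold above 1.

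Its second probe read 6.03 in the KO pool and 3.01 in the WT pool, below the mark in both. Hoxd13, the digit and genital gene, read 8.79 in the KO pool and 3.61 in the WT pool, and Hoxd12 read 2.79 and 3.84, all not well above background. The 4 probes of Hoxa13, Hoxb13 and Hoxd13 thus read low in both pools. The KO reading was the higher one in each, but only the Hoxb13 difference was larger than its scanner error. At Hoxa13 the differences were 0.263 log2 with an error of 0.568 and, at the second probe, 1.096 with an error of 1.532. At Hoxd13 the difference was 1.375 with an error of 1.503. No direction is therefore read from Hoxa13 and Hoxd13.

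Differences in size between the pools were small. Of the 33 genes measured in both pools, 1 was at least 1.5-fold higher in the KO pool, against 6.74% of all 19397 measured genes, and 1 was at least 1.5-fold lower, against 4.5%. At least 2-fold, 0 Hox genes were higher, against 2.23% of all genes, and 0 were lower, against 1.44%, or 3.67% in either direction. Above 0 lay 16 of the 33, or 48.5%, against 51.8% of all genes, and below 0 lay 17. The Hox median was 0.00 log2 and the median of all genes was 0.01. Larger than their own scanner error were 8 differences toward the KO pool and 9 toward the WT pool, while over all genes those shares were 23.4% and 20.7%, or 44.1% in either direction. The central 95% of all genes ran from -0.76 to 0.95, and every measured Hox gene lay inside it. In bulk skin, fewer cells of a type and less RNA per cell cannot be told apart.

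**Figure D2:**
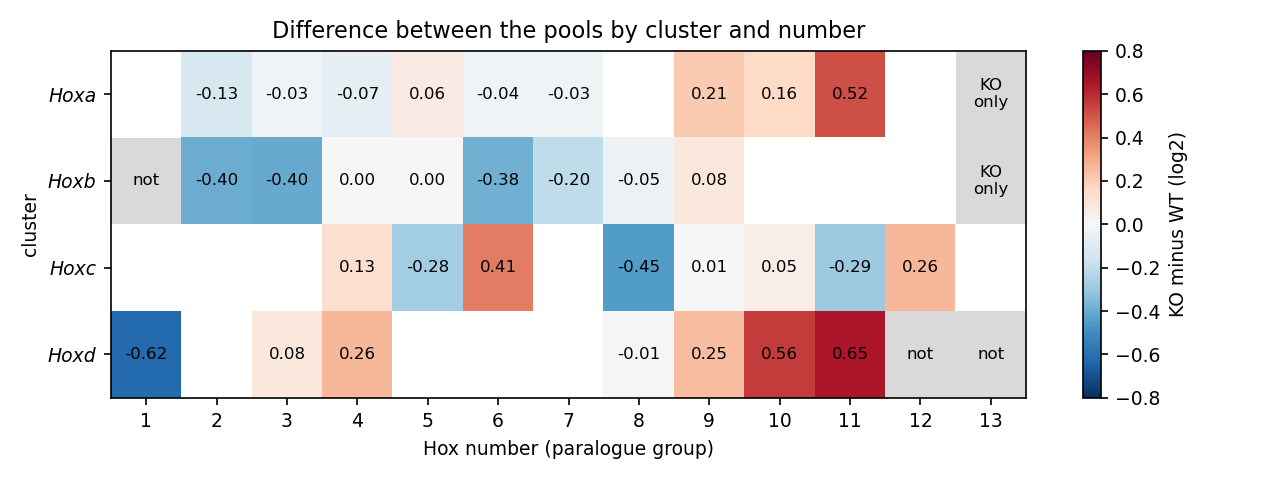
Difference between the pools for the Hox genes shown (KO minus WT, log2), with clusters as rows and numbers as columns. Grey cells are genes not well above background in both pools ("KO only" for the KO pool alone, "not" for neither), and white cells have no gene shown. Values run from -0.62 at Hoxd1 to 0.65 at Hoxd11, and numbers 9 and 10 are above 0 in every cluster that has them. Only 2 of the 4 genes of number 9 and 1 of the 3 of number 10 are past their scanner error, and Hoxc9 stands at 0.01.

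Within this narrow range the differences ran with the number. Genes of numbers 1 to 3 had a median of -0.24 log2, with 6 of 7 below 0. Those of numbers 4 to 8 had a median of -0.03, with 10 of 15 below 0. At numbers 9 to 13 the median was 0.21, with 10 of 11 above 0. Over all genes, 51.8% lay above 0. Larger than their scanner error were 4 of 7 genes of numbers 1 to 3, all lower in the KO pool, and 7 of 11 genes of numbers 9 to 13, of which 6 were higher. Among the 15 genes of numbers 4 to 8, 4 lower and 2 higher ones were past their error. Over all genes this share was 44.1%, with 23.4% higher and 20.7% lower. Some passed barely, such as Hoxa9 at 1.02 and Hoxc12 at 1.05 times the error.

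Across the 33 genes the number and the difference had a Spearman rho of 0.52 and a Pearson r of 0.54. This is a correlation across genes, which share both arrays, lie in 4 clusters and are not independent replicates, so it is given as a description. It was 0.85 in the Hoxa cluster (10 genes), 0.60 in Hoxb (8 genes), -0.05 in Hoxc (8 genes) and 0.82 in Hoxd (7 genes), as Spearman rho. Hoxc has no gene of numbers 1 to 3, so its rho covers a shorter range, and the difference between clusters was not tested. High numbers also had somewhat dimmer probes (rho of -0.28 between number and mean signal over both pools), while mean signal and difference had a rho of -0.13. Among the 13 members brighter than the median of all measured genes, the rho of number with difference was 0.20, and without Hoxd1 and Hoxd11, the pair with the dimmest probes, it was 0.42. Those 13 hold a single gene of numbers 9 to 13, Hoxc9.

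**Figure D3:**
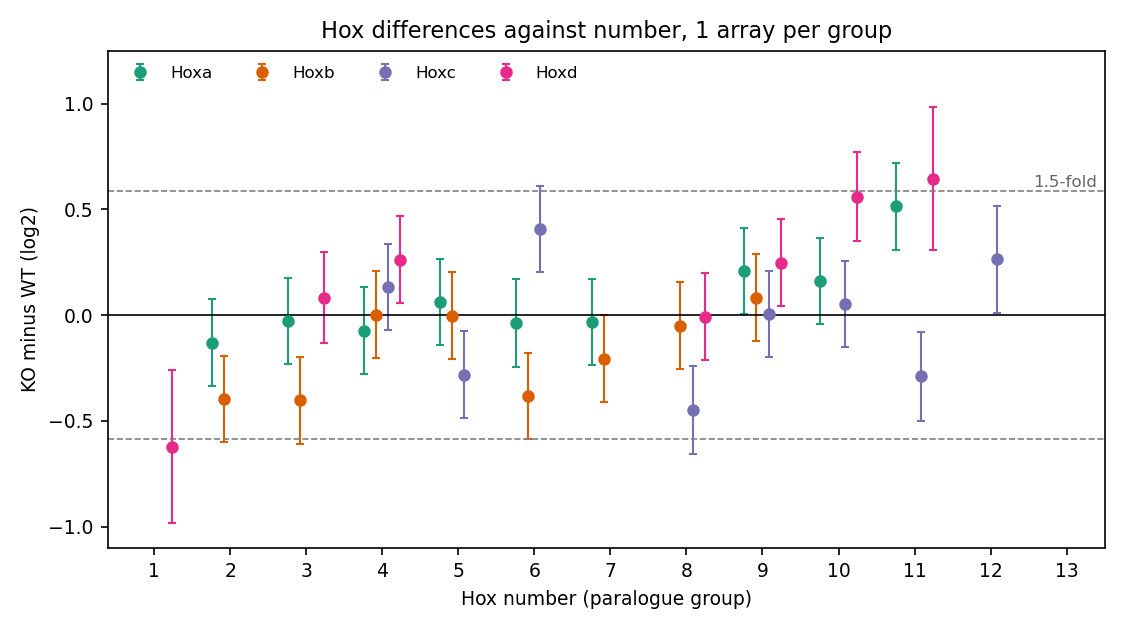
Difference of the measured Hox genes shown (KO minus WT, log2) against their number, coloured by cluster. Bars are the scanner software's error of a difference on 1 array per group and leave out the animals, and dashed lines mark 1.5-fold. Points of Hoxa and Hoxd climb from left to right, while those of Hoxc lie on both sides of 0 at numbers 5 to 12.

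At the high end, the genes that differed most toward the KO pool were Hoxd11, Hoxd10 and Hoxa11, which pattern the trunk's tail end and the limbs and, in the case of number 11, the kidney. Hoxd11 read 25.6 in the KO pool and 17.4 in the WT pool, both dim. It was 1.56-fold higher after scaling, a difference of 0.65 log2 with a scanner error of 0.34, and was the 1 member past 1.5-fold. A second Hoxd11 probe, not well above background on either array, read 6.69 in the KO pool and 7.35 in the WT pool and differed by -0.04.

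Hoxd10 read 156 in the KO pool and 113 in the WT pool, a difference of 0.56 log2 with an error of 0.21, which is 1.47-fold. At 2.67 times its scanner error, this was the largest difference relative to error among the 33 genes. Its neighbour Hoxd9 read 417 in the KO pool and 374 in the WT pool, a difference of 0.25, so that the Hoxd genes of numbers 9, 10 and 11 all lay above 0 by more than their error. In the Hoxa cluster, Hoxa9 read 377 in the KO pool and 347 in the WT pool, a difference of 0.21, while a second probe, at 218 and 235, differed by -0.02. Hoxa10 stood at 0.16.

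Hoxa11 offered the best look at the error within an array, since its probe was printed 10 times. Its spots read from 216 to 295 in the KO pool, with a median of 225, and from 151 to 185 in the WT pool, with a median of 175. All 10 KO spots were brighter than all 10 WT spots. The mean difference after scaling was 0.52 log2 with an SD of 0.20 over spots, and 1.43-fold. A single pair of spots, with the highest KO and the lowest WT reading, differed by 1.06, and with the median over spots in place of the mean the value was 0.45. Spots of 1 pool on 1 array are not replicates of a genotype. Over the 399 probes of the array printed 10 times, the median SD was 0.041, so the Hoxa11 spots varied more than most.

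**Figure D4:**
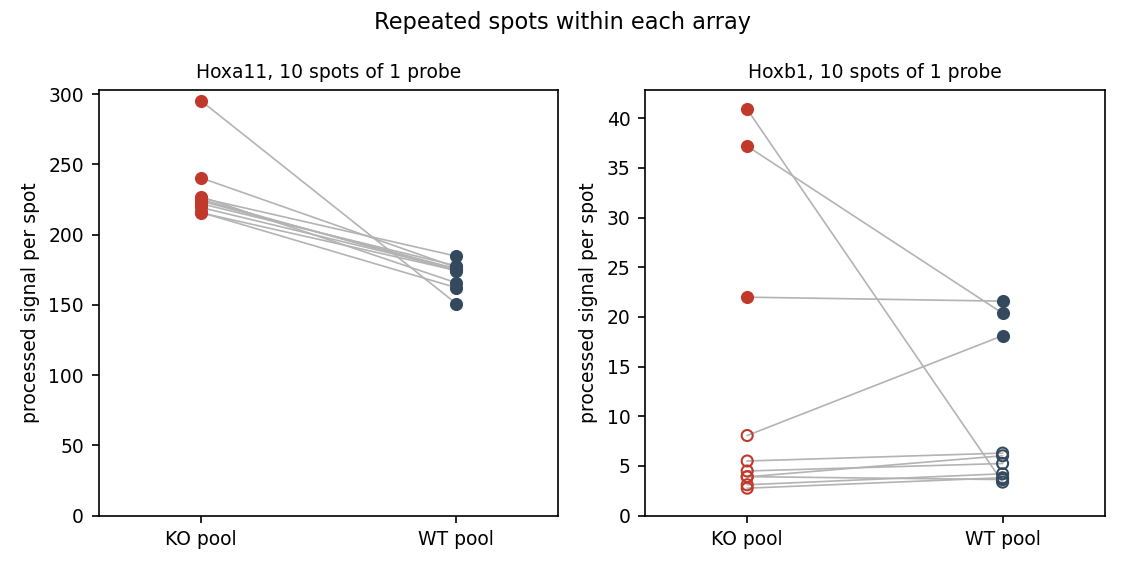
Processed signal of each of the 10 spots of the Hoxa11 probe (left panel) and the Hoxb1 probe (right panel), with the KO pool left of the WT pool and lines joining spots at the same array position. Filled points were well above background. The Hoxa11 spots of the pools do not overlap, while the Hoxb1 spots range from 2.77 to 40.9 in the KO pool and from 3.38 to 21.6 in the WT pool.

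Among the Hoxc genes at the high end, 3 of 4 were above 0. Hoxc11 read 104 in the KO pool and 136 in the WT pool, a difference of -0.29 log2 with an error of 0.21, and was the 1 gene of numbers 9 to 13 below 0. Hoxc12 read 46.3 in the KO pool and 41.1 in the WT pool, a difference of 0.26 with an error of 0.25. Hoxc10, used in the lower trunk and hind limb, read 247 in the KO pool and 254 in the WT pool and differed by 0.05 after scaling, and Hoxc9 by 0.01. Paralogues of number 11 thus lay on both sides of 0, at 0.52, -0.29 and 0.65 for Hoxa11, Hoxc11 and Hoxd11.

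The probes of Hoxd10 and Hoxc11 could be placed in coding sequence, and they are shown because these genes, of neighbouring numbers in different clusters, differed in opposite directions while their probes read the same part of the gene. Each lies over the homeobox, the most alike part of the family. Capitals mark codons of the third helix of the homeodomain, the part that reads DNA, as far as the probe covers it. The probe of Hoxa6, whose capitals mark the core of the hexapeptide motif that binds Pbx cofactors, is given with them, all in the direction of the transcript.

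Hoxd10: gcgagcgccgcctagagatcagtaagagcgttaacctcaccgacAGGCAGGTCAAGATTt

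Hoxc11: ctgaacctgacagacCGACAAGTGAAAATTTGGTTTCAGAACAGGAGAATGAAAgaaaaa

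Hoxa6: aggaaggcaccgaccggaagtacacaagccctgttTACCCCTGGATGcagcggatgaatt

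Their positions on mm9, per the file headers, are chr2:74532280-74532339 on the plus strand for Hoxd10, chr15:102787022-102787081 on the plus strand for Hoxc11 and chr6:52158194-52158253 on the minus strand for Hoxa6. Where the probes of Hoxd10 and Hoxc11 overlap, 22 of 31 bases were identical, without gaps. Against every other gene's probe on the array, the longest unbroken run shared by any of the 43 Hox probes was 20 bases, and the shortest such run was 12. What the probes bind was not tested. The probe of Hoxa11 lies at chr6:52192107-52192166 on the minus strand, and the measured Hoxd11 probe at chr2:74525014-74525073 on the plus strand. Whether they lie in an exon's coding part or in a UTR was not determined, as no annotation of mm9 was used here.

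At the low end, Hoxd1, Hoxb3 and Hoxb2 were lower in the KO pool by more than their error. Hoxd1, which acts in early hindbrain and in sensory neurons, read 16.3 in the KO pool and 26.7 in the WT pool, both dim. It was 1.54-fold lower after scaling, a difference of -0.62 log2 with an error of 0.36, and was the 1 member past 1.5-fold in this direction.

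Hoxb2 and Hoxb3, neighbours that pattern the hindbrain and neck, had probes far above background and nearly the same difference. Hoxb2 read 1959 in the KO pool and 2745 in the WT pool, a difference of -0.40 log2 with an error of 0.20, or 1.32-fold lower. Hoxb3 read 638 in the KO pool and 898 in the WT pool, also a difference of -0.40 and 1.32-fold lower. A second Hoxb3 probe read 289 in the KO pool and 327 in the WT pool and differed by -0.09, on the same side of 0 but smaller.

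Closer to 0, Hoxa2 stood at -0.13, Hoxa3 at -0.03 and Hoxd3, the 1 above 0, at 0.08. Hoxb1 was not well above background by most of its spots. Of its 10 spots, 3 passed the mark on the KO array and 3 on the WT array, 2 of them at the same positions, and they read between 2.77 and 40.9 in the KO pool and between 3.38 and 21.6 in the WT pool. No level of Hoxb1 is taken from them.

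In the middle of the code, the 15 genes of numbers 4 to 8 ranged from -0.45 at Hoxc8 to 0.41 at Hoxc6, so that the widest gap in this class lay between neighbours of 1 cluster. Hoxc8, which sets the identity of the chest wall and lower trunk, read 121 in the KO pool and 176 in the WT pool, a difference of -0.45 log2 with an error of 0.21, or 1.37-fold lower. Hoxc6, a gene of the upper trunk, read 8201 in the KO pool and 6591 in the WT pool, a difference of 0.41 with an error of 0.20, or 1.33-fold higher. Hoxc5 beside it read 260 in the KO pool and 336 in the WT pool and differed by -0.28.

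Hoxb6 and Hoxb7, both trunk genes, were the other pair in this class past their error, each lower in the KO pool. Hoxb6 read 2370 in the KO pool and 3290 in the WT pool, a difference of -0.38 log2, and Hoxb7 read 2455 and 3015, a difference of -0.20 that just exceeded its error. Hoxd4 was the 1 further gene past its error on the KO side, at 1423 in the KO pool and 1264 in the WT pool, a difference of 0.26. Hoxa7, at 10851 in the KO pool and 11824 in the WT pool, differed by -0.03, and Hoxd8, at 4622 and 4947, by -0.01. Hoxb4, Hoxb5 and Hoxb8 lay between -0.05 and 0.00, and Hoxa4, Hoxa5 and Hoxa6 between -0.07 and 0.06.

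By cluster, Hoxb leaned toward the WT pool and Hoxd toward the KO pool. The 8 measured Hoxb genes had a median of -0.13 log2, from -0.40 at Hoxb3 to 0.08 at Hoxb9, with 6 below 0 and 4 of those past their error. The 7 measured Hoxd genes had a median of 0.25, from -0.62 at Hoxd1 to 0.65 at Hoxd11, with 5 above 0 and 4 of those past their error. Hoxa had a median of -0.03 over 10 genes, with Hoxa11 highest at 0.52. Hoxc had a median of 0.03 over 8 genes, from -0.45 at Hoxc8 to 0.41 at Hoxc6. The Hoxb genes measured in both pools end at number 9, while 3 of the 7 Hoxd genes have number 9 or higher, so cluster and number overlap here.

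Other transcription factors of body position were set beside the Hox genes. Of 17 factors of the limbs and trunk, 16 were measured in both pools, with a median of 0.08 log2. Above 0 lay 10, against 51.8% of all genes. At least 1.5-fold higher in the KO pool were 2, against 6.74% of all genes, and lower were 2, against 4.5%. With normexp background correction 1 was higher and 1 lower, and with quantile normalization or scaling on the median 1 was higher. The higher ones were Tbx2 (0.77), which acts in limb and mammary buds, and Tbx4, the hind limb factor, at 231 in the KO pool and 161 in the WT pool, a difference of 0.61. Pitx1, which switches on Tbx4 in the hind limb, read 1099 in the KO pool and 795 in the WT pool, a difference of 0.56 and just under 1.5-fold. Tbx5, the forelimb factor, read 78.0 in the KO pool and 79.3 in the WT pool, a difference of 0.07. Pitx1 and Tbx5 were picked after their values were seen. The lower ones were Msx2 (-1.06) and Msx1 (-0.60), factors of ectodermal organs including the hair follicle. Tbx2, Tbx4 and Msx1 were dimmer than the median of all measured genes, and Msx2 was brighter. Tbx15, which marks the dermis of the back and flank, stood at 0.27, and En1, of ventral limb and dermis, was not well above background in either pool.

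Of 16 factors of the head and face, 12 were measured in both pools, with a median of 0.05 log2. At least 1.5-fold higher in the KO pool were 3, among them Lhx8 (1.38) and Dlx5 (0.83), and at least 1.5-fold lower were 2, among them Dlx1 (-0.61), where normexp left 0 lower. Over all genes those shares were 6.74% and 4.5%. Lhx8, Dlx5 and Dlx1 were dimmer than the median of all measured genes. Lhx8, of the jaw and forebrain, read 135 in the KO pool and 55.5 in the WT pool. Otx1, of the forebrain, was well above background in the KO pool alone, at 57.8, against 3.83 in the WT pool. Krt9, the keratin of palm and sole, read 179 in the KO pool and 270 in the WT pool, a difference of -0.50. Whether unequal parts of the body went into the pools was not tested.

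**Figure D5:**
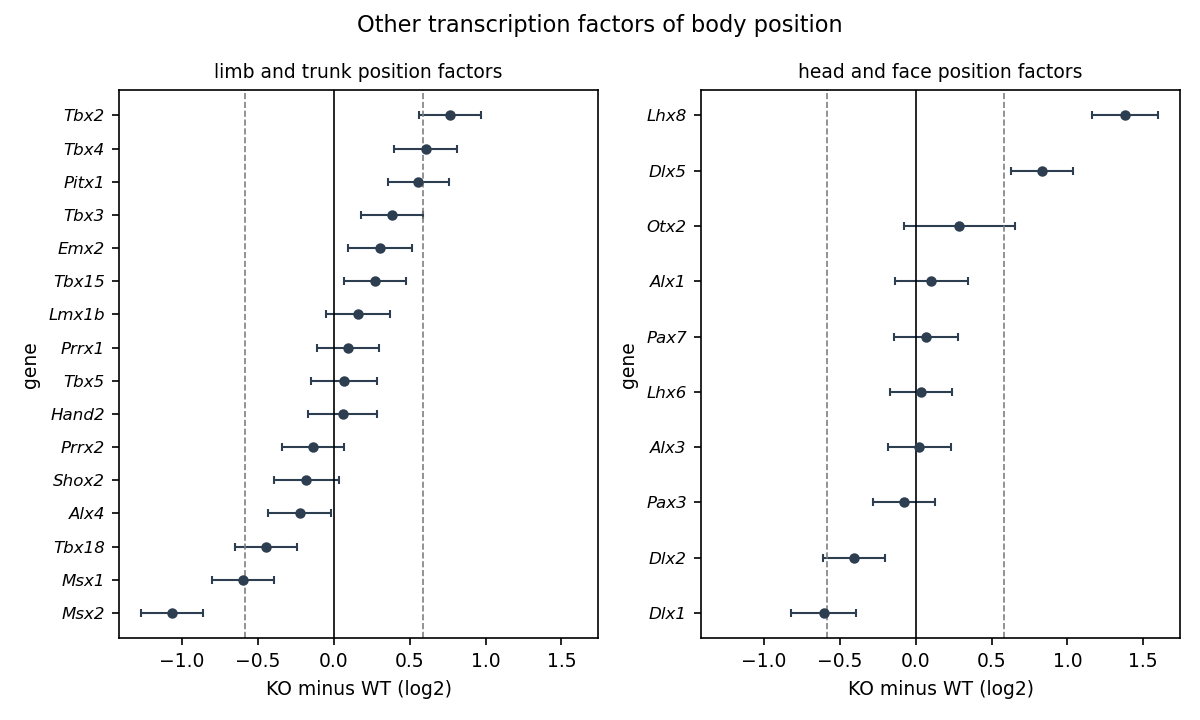
Difference between the pools (KO minus WT, log2) for measured factors of limbs and trunk (left panel) and of head and face (right panel). Bars are the scanner software's error of a difference and dashed lines mark 1.5-fold. In the limb and trunk panel Tbx2 and Tbx4 lie beyond the line on the KO side and Msx1 and Msx2 beyond the line on the WT side, and in the other panel Lhx8 lies farthest out, at 1.38.

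Partners and regulators of Hox proteins were counted against the shares of all genes past 1.5-fold, 6.74% higher and 4.5% lower. Of the 9 cofactors of the Pbx, Meis and Pknox families, which bind DNA together with Hox proteins, 8 were measured, with a median of 0.16 log2 and 6 above 0. Pknox2 (0.64) was the 1 at least 1.5-fold higher in the KO pool, 0 were lower, and Pbx2 was lowest at -0.28. Of 21 Polycomb genes, which keep Hox genes silent where they are not in use, 20 were measured, with a median of -0.02. Ezh1 (0.65) was the 1 higher and 0 were lower. Bmi1 stood lowest at -0.45, and Ezh2, the methyltransferase of dividing cells, at -0.38.

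The 11 genes of the trithorax side, which keeps Hox genes active, and the demethylases of histone H3 had a median of -0.15, with 0 past 1.5-fold in either direction and 9 of 11 below 0. Kdm6a, an X-linked demethylase that escapes X inactivation, was highest at 0.57 and Dpy30 lowest at -0.29. Of 9 regulators that set the Hox domains in the embryo, 7 were measured, with a median of -0.07 and 0 past 1.5-fold. Lin28b was highest at 0.49 and Gmnn lowest at -0.34, while the Hox activators Cdx2 and Cdx4 were not well above background in either pool. Cdx1 was dim but well above background in both, at 21.4 in the KO pool and 27.7 in the WT pool. Its difference was -0.28 with an error of 0.28.

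Genes that flank the clusters were measured to see whether the neighbourhood moved with its Hox genes. Of 21 such genes, 20 were measured, with a median of 0.02 log2. Their counts past 1.5-fold stand beside 6.74% of all genes higher and 4.5% lower. Calcoco1, near the Hoxc cluster, was the 1 at least 1.5-fold higher in the KO pool, at 0.66. Evx2, the homeobox gene next to Hoxd13 at the end of the Hoxd cluster, was the 1 lower, at 12.6 in the KO pool and 61.8 in the WT pool, a difference of -2.21 with an error of 0.36. Its KO signal lies just above the lowest that counted as well above background (9.84), and with normexp 0 flanking genes were at least 1.5-fold lower. It was thus on the other side of 0 from Hoxd10 and Hoxd11 in the same cluster. Evx1, its counterpart beyond Hoxa13, read 18.6 in the KO pool and 3.58 in the WT pool and was well above background in the KO pool alone. Lnpk and Mtx2, on either side of the Hoxd cluster, stood at -0.41 and -0.28.

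Markers of tissues under the skin, which carry Hox RNA of their own, were unequal in places. Their counts stand beside 51.8% of all genes above 0, 6.74% at least 1.5-fold higher and 4.5% at least 1.5-fold lower. All 8 skeletal muscle genes were above 0, with a median of 0.42 log2, 2 at least 1.5-fold higher in the KO pool (Myh3 at 0.99 and Myog at 0.71) and 0 lower. Their summed level, in units of each array's scaling value, was 377 in the KO pool and 304 in the WT pool. For 7 of 8 neuronal genes the sums were 6.99 and 6.74 and the median was 0.09. Snap25, at 12216.5 in the KO pool and 12257.6 in the WT pool, made up most of both sums. Elavl3 (0.59), dim, was the 1 higher and 0 were lower, with Tubb3 at -0.47 and Nefm not well above background. No neuronal gene was past 1.5-fold toward the KO pool with the deposited value table, normexp, quantile normalization, scaling on the median or bright genes alone.

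For 6 of 7 cartilage genes the summed level was 1.31 in the KO pool and 1.69 in the WT pool, and the median was -0.35. Most of both sums came from the single gene Sox9, at 1865 in the KO pool and 2696 in the WT pool. Col9a1 (1.09) and Hapln1 (1.06) were the 2 higher and Col2a1 (-1.15) was the 1 lower (0 with normexp). The defining marker Matn1 was not well above background. Past 1.5-fold lay 6.74% of all genes toward the KO pool and 4.5% toward the WT pool. For 5 of 6 bone genes the sums were 0.370 and 0.361 and the median was -0.10. Alpl, at 437 in the KO pool and 530 in the WT pool, made up most of both sums. Ibsp (0.996) was the 1 higher and 0 were lower, with Sp7 at -0.49 and Dmp1 not well above background. The part of these tissues in the Hox differences was not tested.

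Promoters are shown for Hoxa11 and Hoxd10, which were higher in the KO pool, and for Hoxd1, which was lower. Each is 300 bases around the start of the transcript, from RefSeq on the build GRCm38.p6, and capitals mark CpG, the target of DNA methylation that is dense at genes under Polycomb control. Hoxa11 lies at chr6:52245761-52246060 on the minus strand, Hoxd10 at chr2:74691641-74691940 on the plus strand and Hoxd1 at chr2:74762730-74763029 on the plus strand.

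Hoxa11: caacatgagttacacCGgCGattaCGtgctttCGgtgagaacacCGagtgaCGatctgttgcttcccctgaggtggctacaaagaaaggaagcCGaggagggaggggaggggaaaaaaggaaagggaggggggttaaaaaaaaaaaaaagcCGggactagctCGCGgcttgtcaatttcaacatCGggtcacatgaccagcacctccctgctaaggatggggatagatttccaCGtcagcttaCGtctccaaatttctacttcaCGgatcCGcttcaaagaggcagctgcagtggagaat

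Hoxd10: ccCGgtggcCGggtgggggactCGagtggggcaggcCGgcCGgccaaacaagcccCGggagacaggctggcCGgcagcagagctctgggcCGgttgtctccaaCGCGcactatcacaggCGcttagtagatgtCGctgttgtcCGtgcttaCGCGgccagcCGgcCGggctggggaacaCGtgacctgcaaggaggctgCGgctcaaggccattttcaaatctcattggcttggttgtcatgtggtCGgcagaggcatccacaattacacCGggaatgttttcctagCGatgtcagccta

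Hoxd1: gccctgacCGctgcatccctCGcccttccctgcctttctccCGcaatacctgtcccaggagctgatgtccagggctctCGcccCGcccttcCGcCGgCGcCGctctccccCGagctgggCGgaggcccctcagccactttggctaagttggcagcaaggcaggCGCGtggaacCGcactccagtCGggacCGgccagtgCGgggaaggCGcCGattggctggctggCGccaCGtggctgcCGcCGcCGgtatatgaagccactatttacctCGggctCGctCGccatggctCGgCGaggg

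They hold 15, 22 and 29 CpG for Hoxa11, Hoxd10 and Hoxd1, against a median of 7 over the 32851 promoters of the table. The 24 promoters found for 22 of the Hox genes had a median of 14.5, ranging from 4 to 45. Hoxd11, not printed, has 2 starts in the table, with 4 and 25 CpG. Searched on both strands, the letters CCAAT occurred in the Hoxd10 and Hoxd1 promoters and in 37.4% of all promoters. TATAAA (13.6% of all) and TGATNNAT, a form of the joint Pbx and Hox site (8.85% of all), occurred in none of these 3, so no matches overlapped. Only 22 of the 38 genes, 57.9%, had a promoter in the table, and a comparison over the whole family is therefore void.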

How the data were processed

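Each array held Cy3-labelled cRNA from 200 ng of pooled total RNA from 5 animals, per the labels. The scans were processed in Agilent Feature Extraction 11.5.1.1 (submitters' processing notes) with protocol GE1_1105_Oct12 (file headers). Spot intensity in the deposited files is the software's processed signal, on a design (026655) with mm9 positions, per the file headers. The deposited value table is a ratio: each processed intensity divided by 2273 (KO) or 2406 (WT), on a linear scale, not centred, with medians of 0.0969 and 0.0946. The number of arrays limits the precision.

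Of 43020 spots outside the controls per array, 234 outlier spots were left out, and 0 were saturated. The log2 intensities were averaged over the spots of a probe and scaled by subtracting each array's 75th percentile. There were 0 columns of unknown origin. A probe was well above background where more than 50% of its spots were so marked, and a gene took its brightest probe well above background on both arrays. Probes were named by RefSeq accession (28282), symbol (2204), synonym (174) or the file's own name (1767, and 44 Hox-named ones), and 6951 had no gene name. RefSeq gave the same symbol for all 43 probes of the members, and some genes and a probe sequence are not reported here by name, though counts and medians include all 38 members. Differences are KO minus WT, and folds of 1.5 and 2 served as sizes in place of a test. The steps were tested on simulated data. Values of all Hox genes at least 1.5-fold apart, the extremes of each cluster, numbers 11 to 13 and genes detected in 1 pool alone are named by rule, as are list members past 1.5-fold or at the extremes, and other named genes were picked after their values were seen. The members and lists were chosen with earlier results of these data known. Python 3.11.15, pandas 2.3.3, R 4.3.3 and limma 3.58.1 were used.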

Additional observations from a re-analysis of the deposited data

How the results depend on the processing

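No paired analysis was possible because each group has 1 array. Scaling on probes well above background, on the median, quantile normalization, normexp with an offset of 50, the deposited value table, the mean over probes, bright genes alone and no filter were tried. Hoxd1 and Hoxd11 kept their sign in every alternative that kept them. Of the 33 single differences, 31 moved by less than their scanner error in every alternative that kept them. The exceptions were Hoxd1 (-0.12) and Hoxd11 (0.30) under normexp, which draws low signals together. Members at least 1.5-fold higher in the KO pool numbered 0 under normexp, quantile normalization and bright genes alone, and 3 without the filter, where 2 were at least 2-fold higher, all of them dim. Members at least 1.5-fold lower numbered 0 under normexp and bright genes alone. The median over members was -0.049 when arrays were scaled on the median, which moved the median of all genes to -0.037. Among bright genes alone, where 13 members remained, medians were -0.20 for Hoxb, 0.13 for both Hoxc and Hoxd and 0.0060 for numbers 9 to 13, where Hoxc9 alone was left. Without the filter the Hoxb median was -0.025, and with normexp the median of numbers 1 to 3 was -0.12. The Hoxa median, near 0, was 0.0072 with normexp, and that of Hoxc was -0.018 with scaling on the median. Genes of the whole array past 1.5-fold toward the KO pool numbered 1308, and toward the WT pool 872, as reported, 852 and 423 with normexp, 2225 and 1344 without the filter, 399 and 236 among bright genes, and 1138 and 1017 with scaling on the median. Of the limb and trunk factors, 1 and not 2 was past 1.5-fold toward the KO pool with normexp, quantile normalization or scaling on the median, and with normexp 0 head and face, flanking or cartilage genes were past it toward the WT pool. The rho of number with difference stayed between 0.48 and 0.52 in the other alternatives and was 0.20 among bright genes. Hox genes detected numbered 33 to 37 in the KO pool and 31 to 36 in the WT pool under the other marks. The median over spots for Hoxa11 was chosen after seeing the data.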

Other observations

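Antisense RNAs named for Hox genes, left out of the members, had 6 probes, of which 1 was past 1.5-fold. Of all measured genes, 11.2% were past it in either direction. Hoxa11os, the antisense partner of Hoxa11, read 282 in the KO pool and 186 in the WT pool, a difference of 0.69 log2 or 1.61-fold, on the same side as the 0.52 of Hoxa11 itself. Hoxb5os read 819 in the KO pool and 1041 in the WT pool, a difference of -0.25, while Hoxb5 stood at 0.00. The others, for Hoxaas2, Hoxaas3 and Hoxd3os1, lay between 0.04 and 0.15. These were picked after their values were seen.

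The 10 spots of the Hoxb1 probe fell far apart within each array. At 1 array position the KO spot read 40.9 and the WT spot 3.38, a difference of 3.69 log2, and at another the KO spot read 8.07 and the WT spot 18.1, a difference of -1.08. Of the remaining 8 positions, 2 were well above background in both pools, at 22.0 and 37.2 in the KO pool and 21.6 and 20.4 in the WT pool. The SD over spots was 1.32 log2, against a median of 0.041 over probes printed 10 times. None of the 10 spots was marked as an outlier by the software.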
